A study of Rattus norvegicus with 10 samples.

Results

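The APP gene family comprises the amyloid precursor protein gene App, its paralogs Aplp1 and Aplp2, and genes of the cytoplasmic adaptors that bind the tail of these proteins, the Mint adaptors Apba1 and Apba2 and the Fe65 adaptors Apbb1 and Apbb2. Members were chosen by gene symbol: 6 of the 7 listed genes were measured among 17168 rows, and Apbb2 was not analysed here. All 6 measured members passed the low-count filter and are among the 12355 genes tested.

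Left hippocampal RNA of 10 male TgF-344AD transgenic rats (genotype Tg-AD), killed at 11 months of age, was sequenced from stranded mRNA libraries. The 5 ibudilast rats ate chow with ibudilast, an inhibitor of cyclic nucleotide phosphodiesterases, for 6 months from 5 months of age. The 5 untreated rats ate rodent chow without the drug. As background on the strain, both groups carry a human APP transgene with the Swedish mutation, driven by a mouse prion promoter, so no group here lacks it. The ibudilast tissue was stored in RNAlater-ICE, a tissue transition solution, and for the untreated tissue no such storage is described. Drug and storage therefore cannot be told apart in any difference below. The table has a single App row, and reads of the human transgene in that row cannot be told apart from reads of the rat gene.

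APP is a single-pass membrane protein of neurons and other cells. Cleavage by beta- and gamma-secretase releases amyloid beta peptides, whereas alpha-secretase cuts within the amyloid beta sequence. APLP1 and APLP2 have a similar ectodomain and tail but lack the amyloid beta sequence. A short motif in the tail binds the phosphotyrosine-binding domains of Mint and Fe65 adaptors, which act in trafficking and in signalling of the released tail. The comparison asks how transcripts of the precursor proteins and their adaptors differ between the ibudilast and untreated rats of this strain.

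The sequences before the annotated transcription starts of App, Aplp2 and Aplp1 are shown because App and Aplp2 were lower in ibudilast rats and Aplp1 was not called. They come from RefSeq on the GRCr8 build, on the minus strand, and capitals mark GC boxes (GGGCGG) and CCAAT boxes (CCAAT) found on either strand.
App, 250 to 151 bases before the start, chr11:37722989-37723088: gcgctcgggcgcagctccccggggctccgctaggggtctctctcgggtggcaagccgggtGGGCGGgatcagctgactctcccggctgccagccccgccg
Aplp2, 250 to 1 bases before the start, chr8:37920032-37920281: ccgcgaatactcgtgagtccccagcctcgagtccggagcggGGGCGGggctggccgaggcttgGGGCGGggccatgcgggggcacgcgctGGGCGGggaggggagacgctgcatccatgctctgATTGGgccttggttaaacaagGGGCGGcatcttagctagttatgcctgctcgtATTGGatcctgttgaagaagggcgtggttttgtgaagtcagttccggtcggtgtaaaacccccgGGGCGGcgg
Aplp1, 250 to 1 bases before the start, chr1:94834611-94834860: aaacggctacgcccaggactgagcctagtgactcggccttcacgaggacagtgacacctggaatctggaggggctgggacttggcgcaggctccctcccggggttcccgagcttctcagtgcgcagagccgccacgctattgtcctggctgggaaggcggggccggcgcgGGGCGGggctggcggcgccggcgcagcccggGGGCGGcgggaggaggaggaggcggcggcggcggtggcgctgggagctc

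In the 250 bases before the start, App held 1 GC box, Aplp2 held 5 and Aplp1 held 2, while 30.5% of the 33469 annotated windows of this length held at least 1. The 2 CCAAT boxes of Aplp2 had no counterpart in the App and Aplp1 windows, and 34.0% of all windows held at least 1. GC content was 73.6% for App, 64.8% for Aplp2 and 73.6% for Aplp1, against a median of 51.2% over all windows. The cAMP response element (TGACGTCA), its shorter half-site (TGACG) and the TATA box (TATAAA) were searched on both strands as well, every full element also being counted as a half-site, and none of these letters occurs in the 3 windows. They occur in 1.59%, 18.2% and 12.9% of all windows. Among the adaptors, the Apba1 window held no searched motif at a GC content of 76.0%, and the Apba2 window had 1 CCAAT box, 43.6% GC and 0 CpG. The Apbb1 window, at 51.6% GC, held 1 TATA box, 2 CCAAT boxes and 1 GC box that overlaps a CCAAT box.

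App, Aplp2, Apba1 and Apba2 fell in ibudilast rats, and Aplp1 and Apbb1 were not called. Of the 6 measured members 4 fell and 0 rose (edgeR quasi-likelihood test, Benjamini-Hochberg adjusted threshold 0.05). In the same test 22.8% of all tested genes fell and 24.3% rose, 47.1% in all. The median log2 fold change was -0.73 over the 6 members and 0.02 over all tested genes. With few members and a broad background, these counts describe the family and do not set it apart.

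App itself had 954, 1120, 1057, 903 and 1063 CPM (counts relative to library size, scaled by TMM factors) in ibudilast rats 1 to 5, against 2983, 2540, 1693, 2403 and 2623 CPM in untreated rats 1 to 5. The groups did not overlap, and untreated rat 3 was the closest to the ibudilast rats. The means were 1019 ± 88.5 CPM in ibudilast and 2448 ± 474 CPM in untreated rats (SD, n = 5 each), so that ibudilast rats had 41.6% of the untreated level. Its log2 fold change was -1.26, with a 95% interval from -1.59 to -0.94 (edgeR adjusted p = 9.61e-05). Only 1.05% of tested genes were called with a fall at least as large. The coefficient of variation of App was 8.68% in ibudilast and 19.3% in untreated rats, where untreated rat 3 lay farthest from its group mean (log2 deviation -0.51). This difference in spread was not tested. App was counted deeply, at 15152 to 49622 reads per library. In bulk RNA, fewer cells that express a gene and less of its RNA per cell cannot be told apart, here and for every member below.

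Aplp2, the widely expressed paralog, had 337, 363, 333, 391 and 352 CPM in ibudilast rats 1 to 5, against 607, 641, 589.9, 623 and 589 CPM in untreated rats 1 to 5. A wide gap separated the groups, and the rats within each lay close together. Its coefficient of variation was 6.61% in ibudilast and 3.62% in untreated rats, the narrowest of the 6 members in both groups. Ibudilast rats had 58.2% of the untreated level, with a log2 fold change of -0.78 (95% interval -0.94 to -0.62, edgeR adjusted p = 3.41e-05). Falls called at this size or larger were seen for 6.76% of tested genes.

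Aplp1, the paralog found mainly in the nervous system, had 1547, 1928, 1968, 1505 and 1837 CPM in ibudilast rats 1 to 5, against 1760, 1668, 1539, 1802 and 1968 CPM in untreated rats 1 to 5. The ranges of the groups covered nearly the same values. Its mean was 1757 ± 217 CPM in ibudilast and 1747 ± 159 CPM in untreated rats (SD, n = 5 each). A log2 fold change of 0.01 had a 95% interval from -0.24 to 0.26 (edgeR adjusted p = 0.964), so changes within that interval were not excluded.

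**Figure D1:**
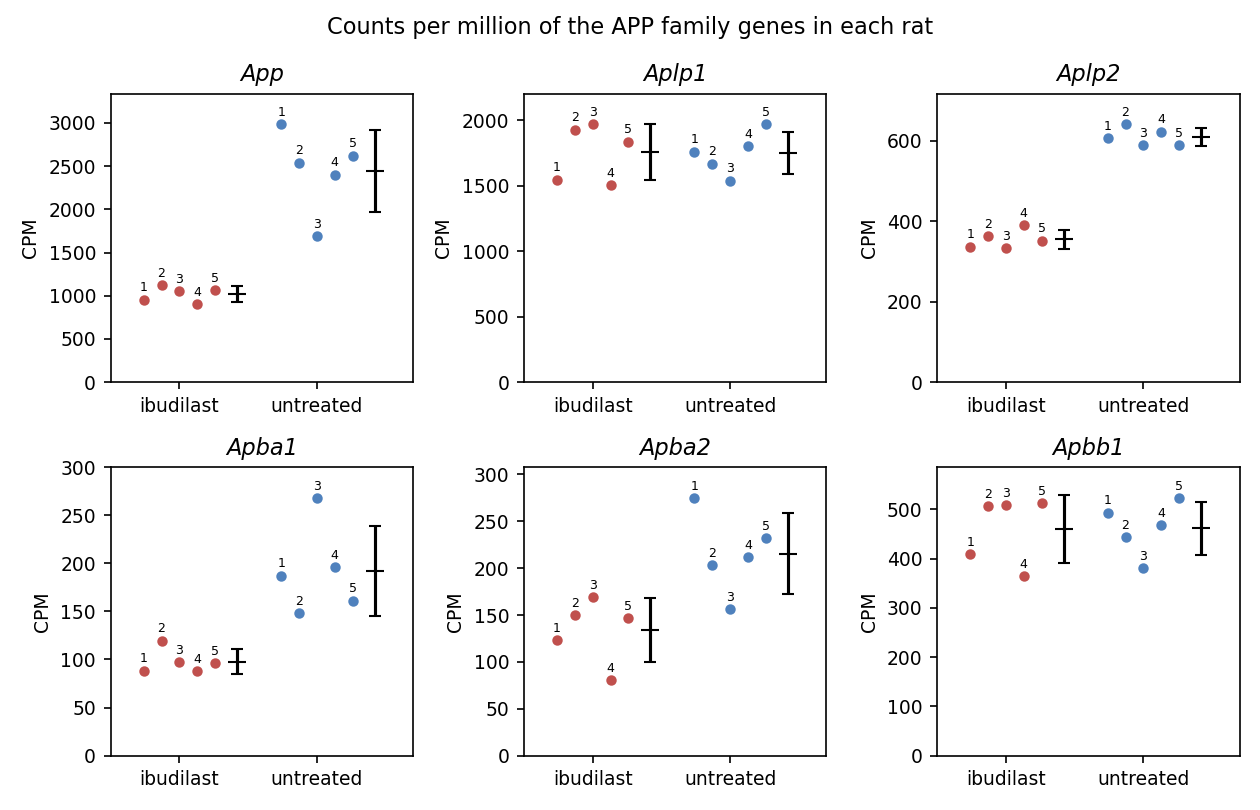
CPM of the 6 measured APP family genes in each rat (points, numbered by replicate), with the mean and SD of each group as bars, ibudilast on the left and untreated on the right of each panel. App, Aplp2 and Apba1 show no overlap of the groups, Apba2 overlaps at ibudilast rat 3 (169 CPM) and untreated rat 3 (156 CPM), and Aplp1 and Apbb1 share their ranges.

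Both Mint adaptors among the members fell. Apba1 encodes Mint1, which links APP to the scaffold CASK. It had 88.3, 119.5, 96.9, 87.9 and 96.4 CPM in ibudilast rats 1 to 5, against 187, 148, 268, 196 and 161 CPM in untreated rats 1 to 5. The groups did not overlap, with untreated rat 3 the highest of all 10. Ibudilast rats had 50.9% of the untreated level, and the log2 fold change was -0.97 (95% interval -1.32 to -0.63, edgeR adjusted p = 0.000637). Its expected counts were fractional in 10 of 10 libraries, so some of its reads were shared with other annotated sequences, and the value carries that uncertainty. Groups of this kind, lower in ibudilast rats without overlap, were seen for 15.4% of all tested genes and for App, Aplp2 and Apba1 among the members.

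Apba2 encodes Mint2, a second neuronal adaptor of the same group. It had 123, 150.1, 169, 80.4 and 147 CPM in ibudilast rats 1 to 5, against 275, 203, 156, 212 and 232 CPM in untreated rats 1 to 5. The groups overlapped through untreated rat 3, which lay below ibudilast rat 3, and ibudilast rat 4 was the lowest of all. Its log2 fold change was -0.69 (95% interval -1.13 to -0.24, edgeR adjusted p = 0.0164), the least precise of the 6 members.

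Apbb1 encodes Fe65, which binds the APP tail and the acetyltransferase Tip60. It had 409, 506, 508, 364 and 512 CPM in ibudilast rats 1 to 5, against 493, 443, 380.5, 468 and 523 CPM in untreated rats 1 to 5. The ranges overlapped almost entirely. The means were 459.9 ± 68.7 CPM in ibudilast and 461 ± 54.0 CPM in untreated rats (SD, n = 5 each), with a 95% interval of the log2 fold change from -0.28 to 0.27 (edgeR adjusted p = 0.981).

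The third Mint gene, Apba3, and the third Fe65 gene, Apbb3, are no members of the set above and were measured in the list of other APP-binding proteins. Both rose. Apba3, a more widely expressed Mint, had 31.5, 29.2, 27.5, 31.5 and 26.7 CPM in ibudilast rats, against 15.1, 20.1, 21.7, 15.4 and 16.4 CPM in untreated rats (log2 fold change 0.72 ± 0.11 SE, edgeR adjusted p = 0.000559). Apbb3 had 41.2, 44.2, 41.4, 51.1 and 43.0 CPM in ibudilast rats, against 29.5, 30.1, 24.6, 27.6 and 27.5 CPM in untreated rats (log2 fold change 0.67 ± 0.08 SE, edgeR adjusted p = 0.000128). Neither gene's groups overlapped, in the direction opposite to Apba1, where 18.0% of tested genes were higher in ibudilast rats without overlap. Reads of Apba3 were fractional in 7 libraries and those of Apbb3 in 0.

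**Figure D2:**
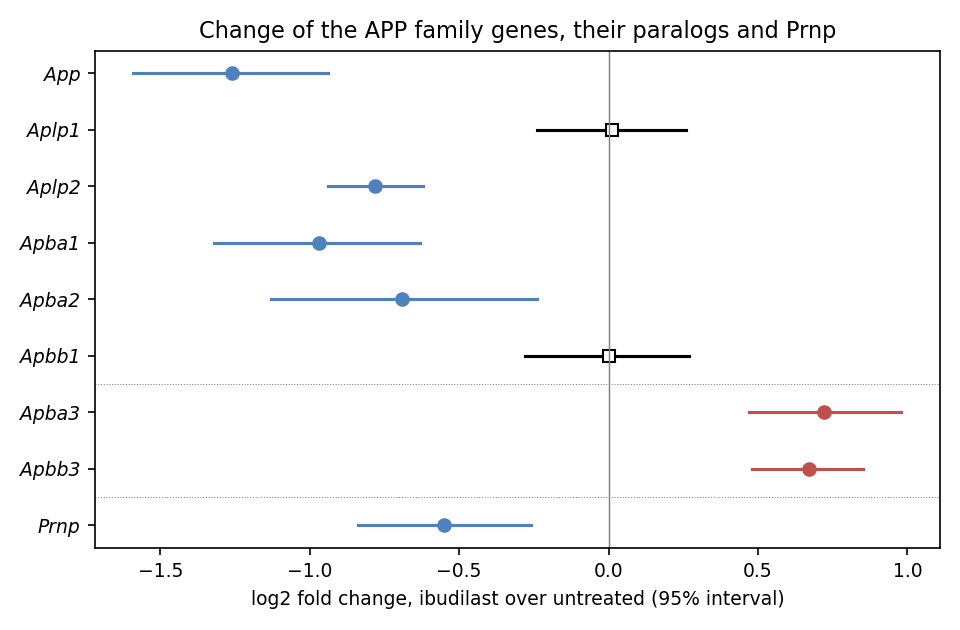
Log2 fold change of ibudilast over untreated rats with its 95% interval for the 6 members, the paralogs Apba3 and Apbb3, and Prnp; filled circles passed the adjusted threshold of 0.05 and open squares did not. App lies lowest at -1.26, Aplp1 (0.01) and Apbb1 lie at the zero line, and Apba3 and Apbb3 lie on the right at 0.72 and 0.67.

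Because a ratio within a library does not depend on how libraries are scaled, unequal change between related genes was tested on per-rat log2 ratios. Of 5 listed pairs 4 could be formed. Each was tested by a two-sided exact permutation test over all assignments of the rats to groups of 5 (smallest p possible 0.00794). Benjamini-Hochberg adjustment was over the 4. The ratios among App, Aplp1 and Aplp2 are linked, each following from the others, so they are not separate results. They use the same counts as the fold changes above and are not independent of them. The log2 ratio of App to Aplp1 was -0.70, -0.78, -0.90, -0.74 and -0.79 in ibudilast rats 1 to 5, against 0.76, 0.61, 0.14, 0.42 and 0.41 in untreated rats 1 to 5. Every untreated ratio was above every ibudilast ratio, and the means differed by -1.25 (exact p = 0.00794, adjusted 0.0159). The ratio of Aplp1 to Aplp2 was 2.30 ± 0.24 in ibudilast and 1.51 ± 0.15 in untreated rats (SD), a difference of 0.79, again without overlap (exact p = 0.00794, adjusted 0.0159).

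The ratio of App to Aplp2 overlapped between the groups. Its log2 values were 1.50, 1.62, 1.67, 1.21 and 1.59 in ibudilast rats 1 to 5, against 2.30, 1.99, 1.52, 1.95 and 2.15 in untreated rats 1 to 5, a difference of -0.46 (exact p = 0.0317, adjusted 0.0423). Untreated rat 3 lay among the ibudilast rats. The call was lost when any single rat other than untreated rat 3 was left out, at differences from -0.50 to -0.38 and adjusted p from 0.0635 to 0.0847, and without untreated rat 3 the difference was -0.58 (adjusted exact p = 0.0212). With fewer rats the smallest possible p is larger, which contributes to the lost calls. The adjusted exact p of App to Aplp1, 0.0159 with all rats, was 0.0212 to 0.0317 when single rats were left out. For Apba1 to Apba2 the difference was -0.24 (exact p = 0.476, adjusted 0.476), with ratios from -0.81 to 0.13 in ibudilast and from -0.55 to 0.78 in untreated rats. That difference was -0.01 without untreated rat 3, -0.15 without ibudilast rat 3 and -0.38 without ibudilast rat 4, and it was not called under any of these. The ranges overlap and show neither equal nor unequal change.

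**Figure D3:**
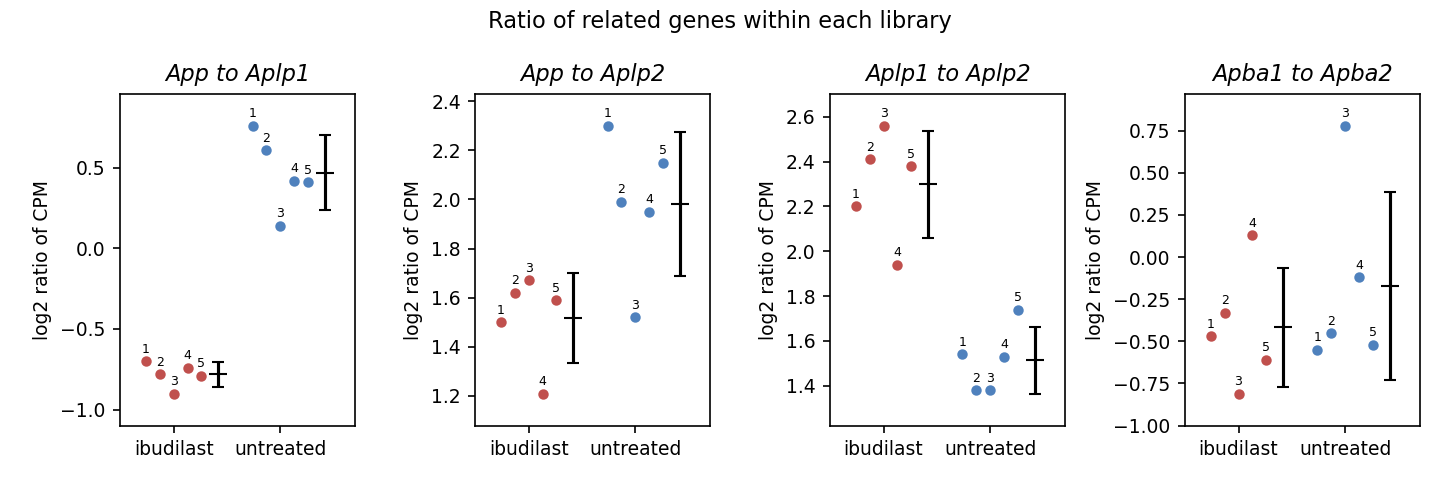
Log2 ratio of CPM between related members in each rat (points, numbered by replicate) with the mean and SD of each group, ibudilast left and untreated right. The ratio of App to Aplp1 is at or below -0.70 in all ibudilast rats and at or above 0.14 in all untreated rats, whereas untreated rat 3 lies within the ibudilast range for App to Aplp2.

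Rats varied around their group means in a way that linked some members and parted others. Untreated rat 3 lay below its group mean by log2 deviations of -0.51 for App, -0.44 for Apba2, -0.27 for Apbb1 and -0.18 for Aplp1, while Apba1 lay above it at 0.51. Ibudilast rat 4 showed -0.69 for Apba2, -0.32 for Apbb1, -0.21 for Aplp1 and -0.17 for App, while Aplp2 was at 0.14. These libraries also had the lowest mean of 10 excitatory neuron markers in their groups, 5.16 log2 CPM in ibudilast rat 4 and 7.19 in untreated rat 3. Other lists were extreme there too. Untreated rat 3 was the highest of its group for inhibitory neuron (5.74), astrocyte (9.22), microglia (6.48) and endothelial (6.08) markers. It was the lowest for oligodendrocyte markers (7.69), and ibudilast rat 4 was the highest of its group for endothelial markers (5.11). A link of any list to the members' deviations was not tested. Without both libraries, an alternative chosen after seeing the data, 4 members fell and 0 rose, as with all rats. In that setting 6601 of 12348 tested genes were called in either direction, against 5817 of 12355 with all rats.

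**Figure D4:**
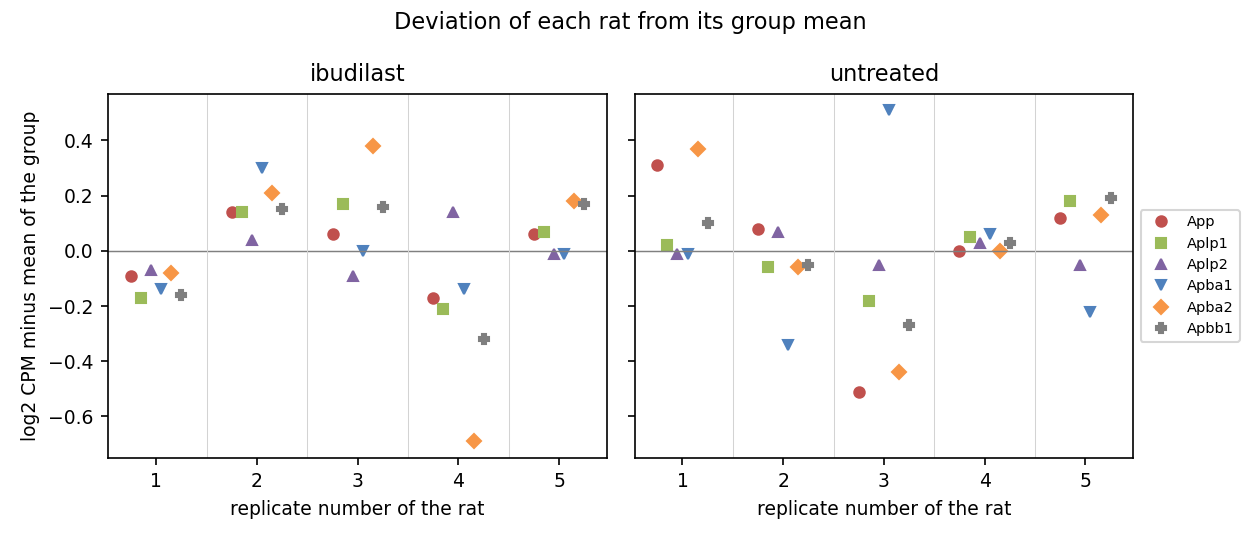
Log2 CPM of each member minus the mean of the rat's own group, by replicate number, with ibudilast rats in the left panel and untreated rats in the right panel. Ibudilast rat 4 and untreated rat 3 hold the lowest App, Aplp1, Apba2 and Apbb1 values of their groups, and untreated rat 3 holds the highest Apba1 value.

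Libraries held 14806807 to 17114238 expected counts in ibudilast and 15984438 to 18533520 in untreated rats, and the smallest count of a member in any library was 1362. Ribosomal RNA genes took 5.88 to 11.9% of counts in ibudilast and 4.07 to 11.4% in untreated rats. Cell type marker lists are read against all tested genes, of which 22.8% were called lower and 24.3% higher. Excitatory neuron markers fell in 3 of 10 (list mean 5.16 to 7.40 log2 CPM in ibudilast, 7.19 to 8.00 in untreated rats), inhibitory neuron markers fell in 2 and rose in 1 of 8 (5.09 to 5.56, against 4.93 to 5.74), and oligodendrocyte markers rose in 5 of 10 (8.59 to 8.90, against 7.69 to 8.67). Astrocyte markers fell in 4 of 8 (8.28 to 8.67, against 8.62 to 9.22), microglia markers in 5 of 8 (5.05 to 5.36, against 5.55 to 6.48) and endothelial markers in 5 of 8 (4.02 to 5.11, against 5.14 to 6.08). The counts for both neuron lists lie near the share over all genes, but the sizes of change differ. The median log2 fold change was -0.82 for excitatory and -0.14 for inhibitory neuron markers, against 0.02 over all tested genes. The excitatory list averaged 6.84 log2 CPM in ibudilast and 7.75 in untreated rats, and its ranges overlapped through untreated rat 3, at 7.19. Ibudilast rat 4, at 5.16, lowered the ibudilast mean, while ibudilast rats 1, 2, 3 and 5 were at 6.93, 7.40, 7.38 and 7.33. The list means of the groups did not overlap for microglia and endothelial markers and overlapped for the other lists. Choroid plexus markers, called in 0 of 6, were high in ibudilast rat 1 and untreated rat 2 (1.96 to 7.41, against 0.90 to 7.71). No listed marker was at 0 in all libraries, and the part of these markers in the members' differences was not tested.

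Prnp, the rat's own prion protein gene, was examined because the APP transgene is driven by a prion promoter. It had 857, 923, 1027, 679 and 1005 CPM in ibudilast rats 1 to 5, against 1474, 1310, 1081, 1355 and 1366 CPM in untreated rats 1 to 5. The groups did not overlap, and ibudilast rat 4 and untreated rat 3 were again the lowest of their groups. Prnp averaged 898 ± 139.9 CPM in ibudilast and 1317 ± 145 CPM in untreated rats (SD, n = 5 each) and fell by 0.55 on the log2 scale (edgeR adjusted p = 0.00576).

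Of 41 tested genes for other APP-binding proteins, 20 fell (48.8%), 5 rose (12.2%) and 16 did not pass, with a median log2 fold change of -0.27. Over all tested genes, 22.8% fell and 24.3% rose. Cask, a scaffold partner of Mint1, had 25.6 ± 2.72 CPM in ibudilast and 48.9 ± 7.83 CPM in untreated rats (log2 fold change -0.93, edgeR adjusted p = 0.000161). Lin7c, of the same scaffold, had a log2 fold change of -1.31, with 6.27 ± 2.28 CPM in ibudilast and 15.6 ± 2.19 CPM in untreated rats (edgeR adjusted p = 0.000814). The other Lin7 genes were not called, at -0.48 for Lin7a (edgeR adjusted p = 0.137) and 0.40 for Lin7b (0.0549). Enah, an actin regulator that binds Fe65, fell by 0.87, Appbp2, which binds the sorting signal of the APP tail, by 0.59 and the endosomal sorting nexin Snx27 by 0.46 on the log2 scale. Clstn3, of the calsyntenins that bind Mint2, fell by 0.80. Besides Apba3 and Apbb3, the rises included Gga1 (0.44), a Golgi sorting adaptor, and Kat5 (0.36), which encodes Tip60. Kat5, Lin7a and Lin7b were named after their values were seen.

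Of 15 tested genes for APP cleavage and amyloid beta degradation, 7 fell, 3 rose and 5 did not pass, with a median log2 fold change of -0.27. Adam10, the main neuronal alpha-secretase, had 56.7 ± 6.58 CPM in ibudilast and 92.2 ± 6.16 CPM in untreated rats (log2 fold change -0.70, edgeR adjusted p = 0.000133). Adam9, a related metalloprotease, fell by 0.84, the beta-secretase Bace1 by 0.31 and the insulin-degrading enzyme Ide, which can break down amyloid beta, by 0.39. Aph1a, a gamma-secretase subunit, rose by 0.26. Other subunits went both ways, such as Aph1b, which rose by 0.33, and Ncstn, which fell by 0.17. Aph1b and Ncstn were named after their values were seen. The counts of both lists are read against the shares over all tested genes, 22.8% lower and 24.3% higher.

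**Figure D5:**
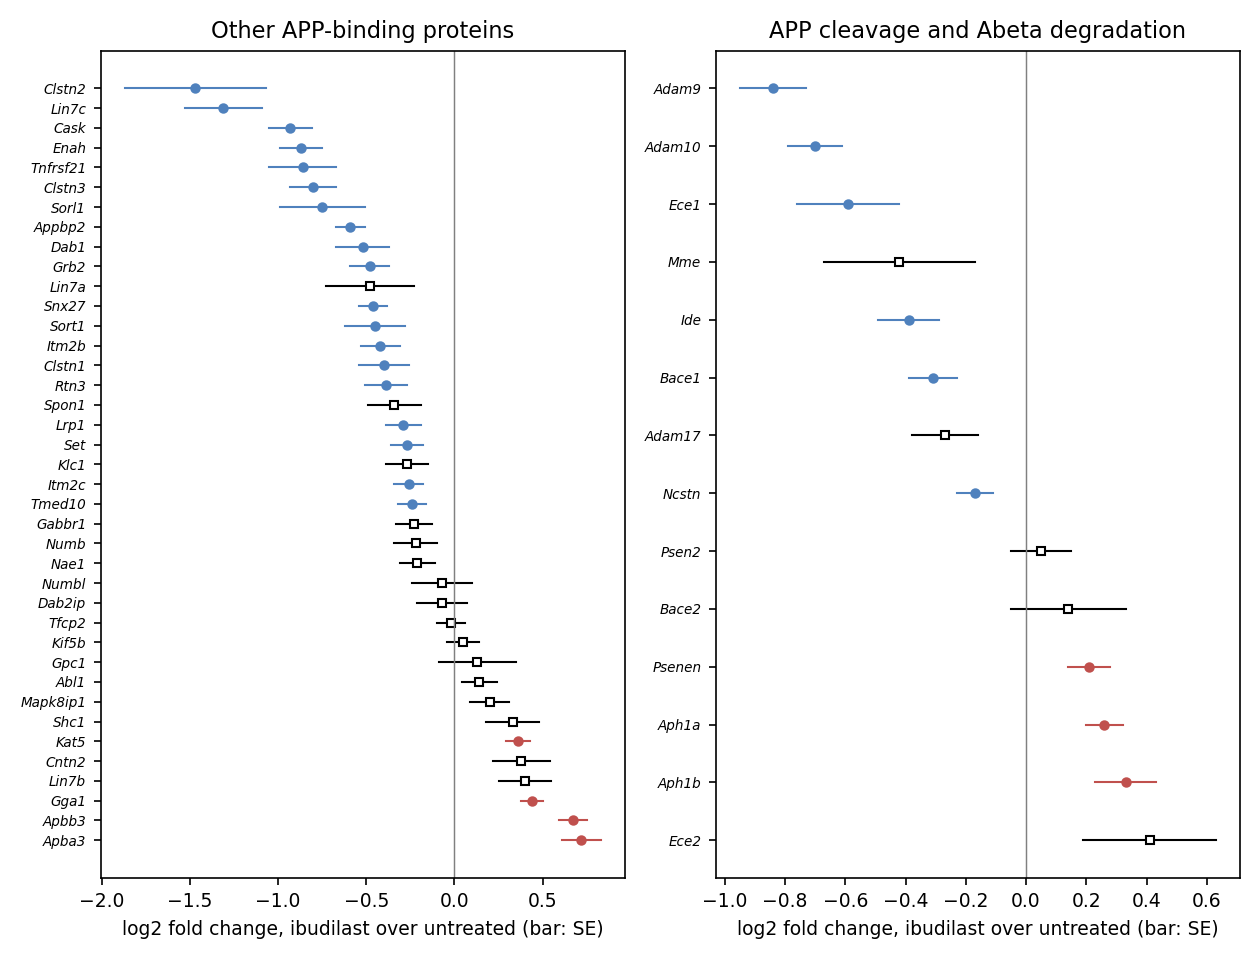
Log2 fold change of ibudilast over untreated rats with its SE for 39 of 41 other APP-binding proteins (left) and 14 of 15 genes of APP cleavage and amyloid beta degradation (right), sorted by value; filled circles passed the adjusted threshold of 0.05 and open squares did not. Of those drawn, 19 fell and 4 rose on the left, with Apba3 and Apbb3 at the high end, and 6 fell and 3 rose on the right.

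Genes with profiles most like a member were found by the root mean square difference of log2 CPM over the 10 libraries, each gene centred on its own mean, among 8728 other genes with a mean of at least 10 CPM. Nearest to App were Pcdhb5 (0.0741 log2 units), Pja2 (0.0754), Sec23a (0.0871), Nsf (0.100) and Mef2a (0.101), against a median of 0.677 over all genes compared. By likeness to App, Aplp2 ranked 436 and Aplp1 3837. Nearest to Aplp1 of all 8728 genes was Apbb1 (0.0622), followed by Actr1a (0.0630) and Psma4 (0.0655), and nearest to Apbb1 were Pcyox1l (0.0495), Aplp1 (0.0622) and Tmem50a (0.0683). Aplp2 was nearest to Rhoa (0.0807), Ndufs1 (0.0885) and Irf2bpl (0.0924). Apba1 was nearest to Ctnnd2 (0.100), Kif5c (0.116) and its scaffold partner Cask (0.126), and the genes nearest to Apba2 included Pgm2l1 (0.0915). All profiles share the same 10 libraries, and the group difference is part of each.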

How the data were processed

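RNA of 10 left hippocampi, 1 library per rat, was analysed, with groups and replicate numbers from the sample titles and replicates being separate rats per the design text. Expected counts per gene were estimated and deposited by the authors without normalization, beside a normalized signal, in which the authors divided counts by TMM-scaled library sizes. Per the submitters' processing notes, the build was rn6 and the tools included RSEM 1.2.15, Bowtie2 2.1.0, bcl2fastq and edgeR. The annotation, and whether counting used strand, are not given in the sources used here. On GRCr8, annotated genes overlapped App, Aplp1, Apba2 and Apbb1, but none of them was among the genes tested. Whether reads of overlapping genes entered a member's row was not tested.

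Expected counts (12.0% of values not whole) were rounded and tested by edgeR 4.0.16 in R 4.3.3 (TMM factors, filterByExpr, robust quasi-likelihood F test, Benjamini-Hochberg over 12355 genes, threshold 0.05). CPM use TMM-scaled library sizes, log2 CPM also a prior count of 2. Exact tests used SciPy 1.17.1. The procedures were tested on simulated data. Whole reads were recovered from the signal for 100% of values (tolerance 0.01). No library pair within a group agreed within sampling noise.

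Named genes were the 7 listed members, Prnp, up to 10 and 6 genes of the 2 pathway lists by smallest p, and the 5 (App) or 3 genes most like each member. Results of some genes that this rule names are not reported here. Members and lists were chosen with earlier results of these data known. Alternatives were other scalings, filters, pseudocounts and tests (DESeq2 1.42.0, limma 3.58.1), a replicate block and leaving out libraries.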

Additional observations from a re-analysis of the deposited data

Results flagged for a closer look

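Within each group of 5, the highest or lowest rat was set against the others for the named genes and ratios, 54 groups in all, and 2 stood apart by more than the 95% critical value of Dixon's test. Chance gives about 1 in 20. Apba1 was at 119.5 CPM in ibudilast rat 2, against 87.9 to 96.9 CPM in the other ibudilast rats. Bace1 was at 57.9 CPM in the same rat, against 47.1 to 49.4 CPM in the other ibudilast rats.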

How the results depend on the processing

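Under all 24 alternatives the 4 members App, Aplp2, Apba1 and Apba2 fell and Aplp1 and Apbb1 were not called. App ranged from -1.40 to -1.18, Aplp2 from -0.84 to -0.71, Apba1 from -1.08 to -0.79 and Apba2 from -0.81 to -0.57 on the log2 scale, and the highest adjusted p of Apba2 was 0.0448. The median of all genes moved by less than 0.1 under each scaling. Same-numbered rats did not regularly deviate together (correlations from -0.328 to 0.416), and no rat of 5 correlated best with its own number. These values gave no sign of pairing by number but do not exclude it. With a replicate block, 11 APP-binding genes fell, against 20 without it, and the ratio differences did not pass over 5 pairs, whose smallest p is 0.0625: App to Aplp1 -1.25 (adjusted p = 0.125), App to Aplp2 -0.46 (0.167) and Aplp1 to Aplp2 0.79 (0.125). Untreated rats 2 and 3 and ibudilast rats 1 and 4 were left out together because their libraries stood apart in these data. The same ratio differences were then -1.35, -0.50 and 0.85 (adjusted exact p = 0.133 each, smallest p 0.100). In that setting 8 APP-binding genes rose, against 5. Without untreated rat 3 and ibudilast rat 4, chosen after seeing the data, 8 also rose. Without scaling factors 4 cleavage and degradation genes fell, against 7. Leaving out single rats gave App to Aplp2 differences from -0.58 to -0.38 and 1 to 3 rises among cleavage and degradation genes, 1 of them without untreated rat 4 or ibudilast rat 5, against 3. Calls over all genes, in either direction, also moved from the 5817 of 12355 in the main test. They were 4726 of 12355 with the block and 6857 of 12325 without the 4 rats. Without untreated rat 3 and ibudilast rat 4 they were 6601 of 12348. Without scaling factors they were 5707 of 12355, and without single rats 5115 to 6292. The list counts are read against these, and the causes of the changes were not tested. With 5 rats a group, changes of Aplp1 and Apbb1 within their intervals were not excluded.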
